A study of Mus musculus with 13 samples.

Results

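The semaphorins, plexins and neuropilins are a family of guidance ligands with their receptors and co-receptors. They were taken here as every gene of the count table whose symbol names a semaphorin of classes 3 to 7, a plexin of types A to D, or neuropilin 1 or 2. This rule found 31 of the 35972 genes, of which 20 are semaphorins, 9 are plexins and 2 are neuropilins. The series asked which genes Fezf2, a zinc-finger transcription factor of deep-layer cortical projection neurons and their progenitors, regulates in the mouse neocortex. In the sorted-cell experiment, CD-1 IGS embryos received plasmids by in utero electroporation at E16.5 (embryonic day). Fluorescent cells were sorted from the neocortex at postnatal day 3. There were 5 libraries titled Fezf2 + GFP (Fezf2 libraries 1 to 5) and 3 titled GFP (GFP libraries 1 to 3), all amplified with the NuGEN Ovation V2 system. In the knockout experiment, whole neocortex of C57BL6/J mice was taken at postnatal day 0 and prepared with a TruSeq mRNA kit. A floxed Fezf2 allele was deleted with Emx1-cre, which acts in cortical progenitors and their progeny, so cells of other origin keep the allele. There was 1 library labelled Fezf2 knockout (title Emx-cre KO) and 1 labelled wild type (title Emx-cre WT). The titles do not say whether the wild type carried cre. Promoters driving the plasmids, the sort gate, and how many animals or litters went into a library are not given in the sources used here.

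Semaphorins are ligands that steer growing axons and migrating cells. Those of class 3 are secreted and mostly bind neuropilins, which hand the signal to type A plexins. Those of classes 4 to 7 are held in the membrane and mostly bind plexins directly. Plexins carry a GTPase-activating domain inside the cell and act through small GTPases, kinases and actin regulators. In the developing cortex the family is known for repelling or attracting cortical axons, orienting dendrites and guiding radial migration.

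The sorted-cell libraries held 3245932 to 5801839 counts. The neocortex library labelled knockout held 17856211 and its wild-type counterpart 11818437. Mitochondrially encoded genes took 21.0% to 27.1% of counts in sorted cells and 0% in the neocortex pair. Fezf2 had 85.1 to 151 TMM-scaled CPM (each count divided by the TMM-normalized library size and scaled to a common total) in the Fezf2 libraries and 3.54 to 12 CPM in the GFP libraries. It had 53.5 CPM in the library labelled Fezf2 knockout against 51.4 CPM in wild-type neocortex, so the count of the targeted gene did not bear out the knockout label. Whether its counts came from outside the deleted part was not tested. Each sorted library's correlation with the others averaged 0.904 to 0.938, lowest in Fezf2 libraries 1, 4 and 2. Markers of cortical glutamatergic neurons summed to 1346 to 3527 CPM in the 8 sorted libraries and to 1853 and 2333 CPM in the neocortex pair, and none of the 9 was at 0 in every sorted library. Marker sums of other cell types varied widely between the Fezf2 libraries and are given below.

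Levels between genes were compared as CPM per kb of the gene length behind the authors' RPKM values. On this scale Plxna4 and Plxna2, both type A plexins, led the family in GFP-sorted cells. Plxna4, a receptor of class 3 and class 6 semaphorins, stood at 90.8 ± 2.04 CPM per kb (SD, n = 3) and Plxna2, which shares those ligands, at 70.7 ± 2.12. Plxna1 followed at 25.0 ± 2.05, and the libraries of these top genes did not overlap between Plxna4 and Plxna2 or between Plxna2 and Plxna1. The most abundant ligand per kb was Sema4g, a membrane semaphorin, at 24.4 ± 0.0282, which overlapped Plxna1. Sema6a and Sema7a came next at 18.7 ± 1.35 and 17.3 ± 5.59, and Plxna3, the remaining type A plexin, stood at rank 10 with 13.1 ± 0.618. At the other end stood Plxnb3 at 0.169 ± 0.114, with Sema3g at 0.262 ± 0.238, Sema3e at 0.381 ± 0.294 and Sema3b at 0.408 ± 0.203. Of the 30 pairs of neighbours in this order, 26 overlapped, so the middle of the order holds no clear ranks.

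In wild-type neocortex the order was different, but age, strain, tissue and library kit differed too and cannot be told apart, so the values are set side by side only. Sema4g led there at 67.7 CPM per kb, followed by Plxna4 at 48.2, Sema4c at 37.2, Plxna2 at 36.6, Plxnd1 at 34.8, Sema6b at 34.7 and Plxna3 at 34.6. Plxnd1, the receptor of Sema3e that is best known from blood vessels, was at 2.08 ± 1.06 CPM per kb in GFP-sorted cells. Markers of endothelial cells summed to 17.1 to 25.4 CPM in the GFP libraries and to 133 CPM in wild-type neocortex, and their part in the Plxnd1 level was not tested. Nrp2 likewise stood at 9.85 CPM per kb in the wild-type library against 1.11 ± 0.386 in GFP-sorted cells. Sema5a, a membrane semaphorin with thrombospondin repeats, had 3.12 CPM per kb in wild-type neocortex and 13.3 ± 0.961 in GFP-sorted cells.

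**Figure D1:**
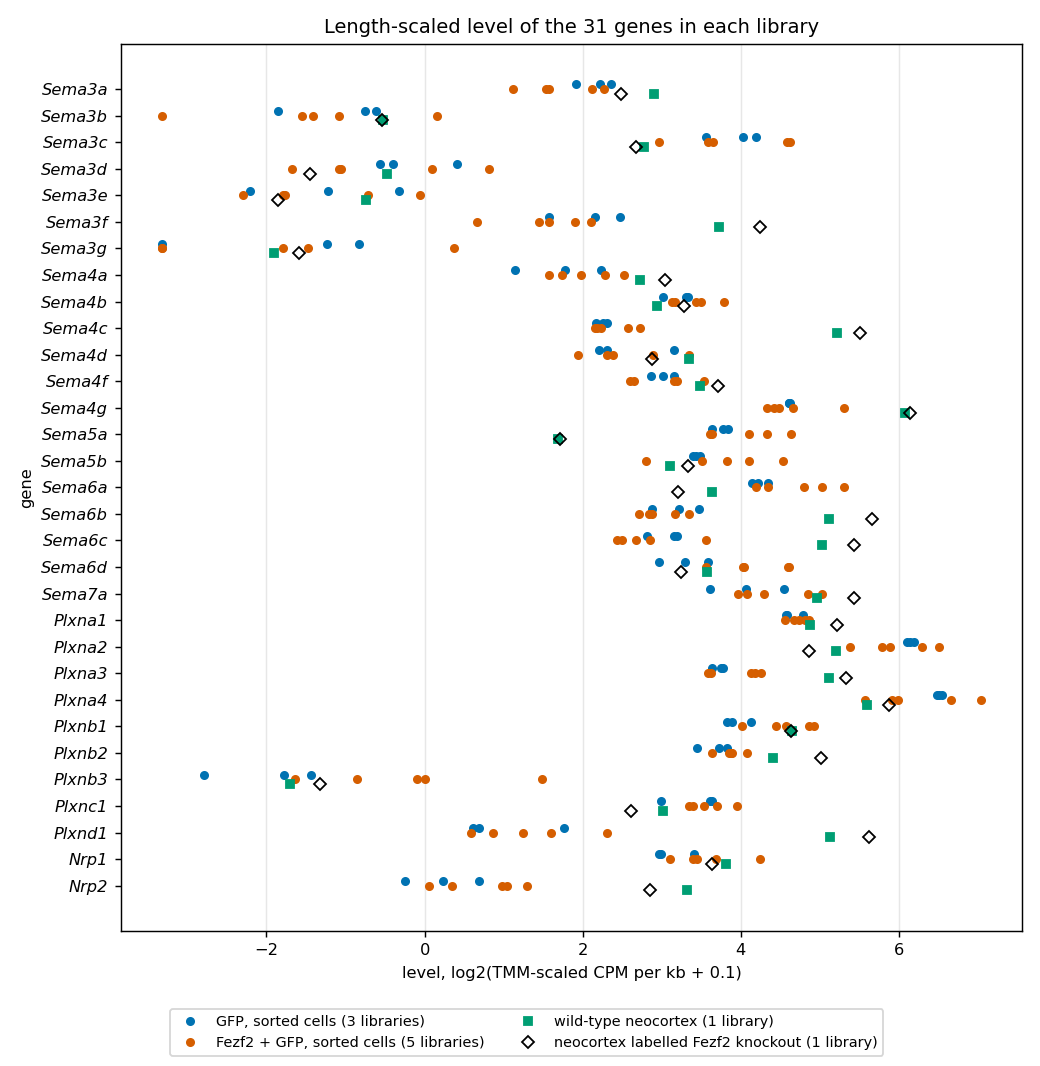
Length-scaled level of each of the 31 genes, as log2 of TMM-scaled CPM per kb plus 0.1, with 1 point per library: 3 GFP, 5 Fezf2 + GFP, 1 wild-type neocortex and 1 neocortex labelled Fezf2 knockout. Plxna4 and Plxna2 lie highest in GFP-sorted cells and Sema4g lies highest in wild-type neocortex, while Plxnb3, Sema3b, Sema3d, Sema3e and Sema3g lie at the low end in GFP-sorted cells and in neocortex.

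Promoters of the members were read from the RefSeq table (GRCm38.p6) as the 250 bases before each listed start. There were 37 such windows for 26 of the 31 genes. Plxna2 stands for the abundant and library-dependent receptors, and Sema6d, Plxnb1 and Plxnb3 are among the genes nearest to the threshold in the comparison of sorted cells. All are printed 5′ to 3′ on the plus strand, with the GC box GGGCGG or its complement CCGCCC in capitals. The windows are chr1:194619579-194619828, chr2:124089719-124089968, chr9:109095186-109095435 and chrX:73756853-73757102. GC boxes are the letters bound by Sp-family factors in many widely expressed genes.
Plxna2: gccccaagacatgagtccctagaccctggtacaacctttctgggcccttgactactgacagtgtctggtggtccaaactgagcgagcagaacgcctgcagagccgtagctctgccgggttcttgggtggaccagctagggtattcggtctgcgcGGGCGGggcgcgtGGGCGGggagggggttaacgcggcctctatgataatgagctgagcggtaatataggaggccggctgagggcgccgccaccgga
Sema6d: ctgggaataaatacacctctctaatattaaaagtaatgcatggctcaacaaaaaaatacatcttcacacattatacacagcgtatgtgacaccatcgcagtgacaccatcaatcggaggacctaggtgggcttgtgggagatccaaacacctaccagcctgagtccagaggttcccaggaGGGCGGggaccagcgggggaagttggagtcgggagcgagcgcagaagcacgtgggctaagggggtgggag
Plxnb1: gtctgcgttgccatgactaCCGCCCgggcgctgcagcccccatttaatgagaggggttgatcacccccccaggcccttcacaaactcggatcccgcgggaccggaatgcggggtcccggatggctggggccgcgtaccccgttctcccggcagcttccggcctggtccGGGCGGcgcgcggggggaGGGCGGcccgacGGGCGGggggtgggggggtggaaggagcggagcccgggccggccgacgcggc
Plxnb3: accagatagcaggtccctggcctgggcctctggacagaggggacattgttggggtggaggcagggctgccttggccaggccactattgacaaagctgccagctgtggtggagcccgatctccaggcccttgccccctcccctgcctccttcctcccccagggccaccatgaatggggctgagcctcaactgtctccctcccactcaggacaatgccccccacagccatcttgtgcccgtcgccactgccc
These windows hold 2 GC boxes in Plxna2, 1 in Sema6d, 4 in Plxnb1 and 0 in Plxnb3, and 18, 9, 30 and 3 CpG dinucleotides. Sema6d has another listed window, not printed, with 0 GC boxes. Over all member windows, 27 of 37 (73.0%) held a GC box on either strand, against 32.7% of 32851 windows of the same length, and the median GC content was 64.0% against 52.4%. The E-box CAGATG (or CATCTG), in the form bound by NeuroD-type factors, was in 2 of 37 (5.41%) against 14.4%, and TATAAA (or TTTATA) was in 0 of 37 against 12.4%. A match describes letters only.

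Fezf2 libraries were then compared with GFP libraries. The comparison asks which members differ in sorted cells that received Fezf2. No member passed the test, 22 of the 29 tested had a higher mean with Fezf2, and the genes nearest to the threshold were the membrane ligands Sema6d and Sema6a and the receptors Plxnb1 and Plxnb3. In edgeR's quasi-likelihood test with Benjamini-Hochberg adjustment at 0.05, 0 of 29 members were called, against 0.0145% of all 13754 tested genes, and DESeq2 called 0 as well. Sema3b and Sema3g were not tested because of low counts, reaching at most 4.33 and 5.42 CPM in any sorted library. At an unadjusted edgeR p under 0.05, 4 members were higher with Fezf2 and 0 lower, against 4.31% of all tested genes higher, 2.24% lower and 6.55% either way. Plxnb3 is 1 of the 4, and it passed the low-count filter through the Fezf2 libraries, where it is high, so its place among them is no support. The same holds for its place among the 22 with a higher mean. The share of members with a higher mean compares with 52.9% of all tested genes, and the median log2 fold change of the members was 0.16 against 0.02 over all tested genes. In 0 of 29 members did every Fezf2 library lie on the same side of every GFP library, against 4.71% of all tested genes (2.25% higher, 2.46% lower). No label says that replicates came from separate animals, so p-values measure only the spread between these libraries. In bulk samples such as these, fewer cells of a type and less RNA per cell cannot be told apart.

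**Figure D2:**
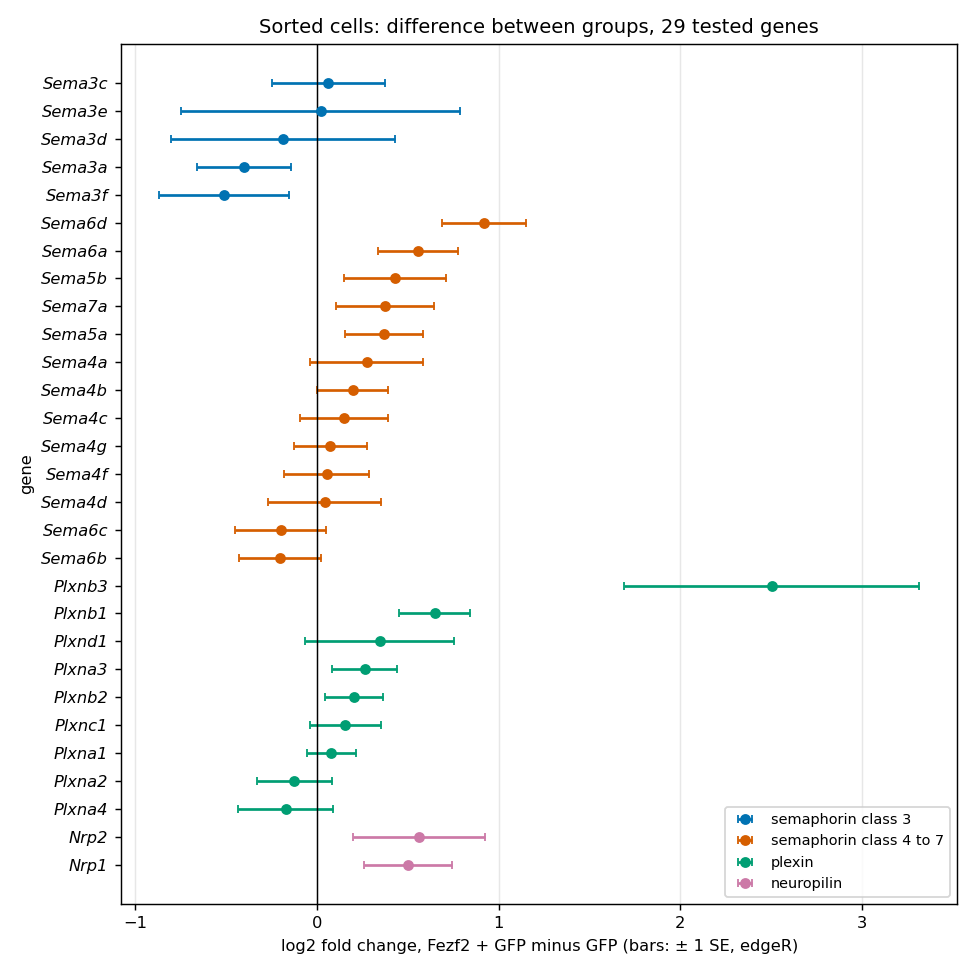
Log2 fold change (Fezf2 + GFP minus GFP, edgeR) of the 29 tested genes on the x axis, with bars of ± 1 SE, grouped by class. Of the 18 tested semaphorins 13 lie above 0, of the 9 plexins 7 and of the 2 neuropilins 2, and none passed the adjusted threshold.

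Most secreted class 3 semaphorins act through neuropilins. Of the 5 class 3 genes tested, 2 had a higher mean with Fezf2 and 3 a lower one. Their median log2 fold change was -0.19. Sema3a, the classical repellent of cortical axons, had 43.1, 29.3, 47.7, 21.1 and 28.4 CPM in Fezf2 libraries 1 to 5 and 50.8, 46.2 and 37.2 CPM in GFP libraries 1 to 3. Of the 5 Fezf2 libraries 3 lay below every GFP library and 0 above, so the groups overlapped (edgeR adjusted p = 0.815, log2 fold change -0.40, SE 0.26). Sema3f, a ligand that signals mainly through Nrp2, had 14.7, 9.23, 12.7, 5.20 and 10.1 CPM with Fezf2 and 15.3, 19.1 and 10.0 CPM with GFP alone. Every Fezf2 library was below the GFP mean of 14.8 ± 4.54 CPM, yet the ranges overlapped (edgeR adjusted p = 0.824, log2 fold change -0.51, SE 0.36). Sema3c, an attractant of callosal axons, had 176, 171, 85.1, 55.2 and 88.8 CPM with Fezf2 and 116, 131 and 84.0 CPM with GFP alone. Its Fezf2 libraries thus ranged from below the lowest to above the highest GFP library, and the log2 fold change was 0.06 (SE 0.31). Sema3d and Sema3e were rare, with 5 to 40 and 3 to 28 counts per Fezf2 library, and gave log2 values of -0.19 (SE 0.62) for Sema3d and 0.02 (SE 0.77) for Sema3e. Sema3d, Sema3a, Sema3e and Sema3c lie along 1 stretch of chromosome 5, their first promoter windows in the RefSeq table (GRCm38.p6) starting 1.01, 1.64 and 5.19 Mb beyond that of Sema3d for the other three. Their levels were far apart in GFP-sorted cells, from 0.381 CPM per kb for Sema3e to 15.4 ± 3.33 for Sema3c.

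The membrane semaphorins of classes 4 to 7 had a higher mean with Fezf2 in 11 of 13 cases, with a median log2 fold change of 0.20. Sema6d, a ligand of type A plexins that can itself signal backwards into its own cell, had the smallest p of the family. Its printed promoter window holds 1 GC box and its other listed window 0. Sema6d stood at 124, 257, 171, 255 and 174 CPM in Fezf2 libraries 1 to 5 and at 126, 103 and 81.7 CPM in GFP libraries 1 to 3. Fezf2 libraries 2 to 5 lay above every GFP library and Fezf2 library 1 lay just below GFP library 1. The means were 196 ± 58.1 CPM (SD, n = 5) and 104 ± 22.3 CPM (SD, n = 3), with a log2 fold change of 0.92 (SE 0.23), an unadjusted edgeR p of 0.00124 and an adjusted p of 0.719. With no filter on low counts edgeR called 117 of 26328 genes and 1 of 31 members. That member was Sema6d, at a log2 fold change of 0.91 and an edgeR adjusted p of 0.000975. Over the other alternatives the adjusted p ran from 0.0812 with DESeq2 to 0.999. Sema6a, the sister ligand of the same receptors, had 160, 285, 178, 348 and 243 CPM with Fezf2 and 178, 162 and 155 CPM with GFP alone. Its Fezf2 libraries 2 to 5 lay above every GFP library, library 3 by less than 1 CPM, and library 1 lay among them (edgeR adjusted p = 0.729, log2 fold change 0.56, SE 0.22).

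The other class 5 and 6 ligands were divided. Sema5b, which has thrombospondin repeats like Sema5a, had 48.9, 164, 80.1, 122 and 100 CPM with Fezf2 against 74.4, 78.8 and 76.4 CPM, so that library 1 was the only Fezf2 library below the GFP libraries (log2 fold change 0.43, SE 0.28). Sema5a had 149, 300, 147, 207 and 242 CPM against 171, 149 and 165 CPM, with libraries 1 and 3 at the low end (log2 fold change 0.37, SE 0.21). Sema6b had 40.1, 29.0, 35.5, 25.7 and 28.1 CPM with Fezf2 and 29.0, 43.9 and 36.9 CPM with GFP alone, overlapping broadly (log2 fold change -0.20, SE 0.23). Sema6c also gave -0.20 (SE 0.25), with 69.5 CPM in Fezf2 library 3 and 31.7 to 42.5 CPM in the rest of that group. Per gene the spread was thus larger than the difference of the means in Sema6b and Sema6c.

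All 6 class 4 semaphorins had a higher mean with Fezf2, but by little, with log2 fold changes from 0.04 in Sema4d to 0.27 in Sema4a and adjusted edgeR p-values of 0.870 or more. Sema4g showed how little: its GFP libraries had 119, 119 and 119 CPM (SD 0.138) and its Fezf2 libraries 193, 104, 123, 109 and 98.1 CPM. Fezf2 library 1 was far above and 3 of the 5 Fezf2 libraries were below every GFP library. Sema4c, which is a ligand of Plxnb2, had 20.1, 30.1, 27.0, 21.1 and 20.4 CPM with Fezf2 and 21.6, 20.3 and 22.4 CPM with GFP alone (log2 fold change 0.15, SE 0.24). Sema7a, a lipid-anchored ligand of integrins and Plxnc1, had 95, 55.4, 107, 51.1 and 64.3 CPM against 76.8, 54.9 and 40.1 CPM, with overlapping groups (log2 fold change 0.38, SE 0.27). Summed over its 20 genes, the semaphorin class took 1247 to 1667 CPM in the Fezf2 libraries and 1040 to 1189 CPM in the GFP libraries, which did not overlap, and this sum was not tested. The sum of classes 4 to 7 was also apart (1073 to 1452 against 891 to 997 CPM). Sums over all 31 members (3554 to 5251 against 3904 to 4134 CPM) and all plexins (2068 to 3853 against 2794 to 2943 CPM) overlapped. So did those of the neuropilins (59.2 to 135 against 56.9 to 69.3 CPM), of class 3 and of class 4. The class 5 and 6 genes alone summed to 564 to 1066 CPM with Fezf2 and 556 to 631 CPM with GFP alone, with Fezf2 library 1 inside the GFP range.

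Of the plexins, the receptors, 7 of 9 had a higher mean with Fezf2, and the median log2 fold change was 0.20. Type B plexins, which bind class 4 semaphorins and signal through Arhgef11 and Arhgef12, all had a higher mean with Fezf2. For Plxnb3 this direction is no support, since it passed the low-count filter through the Fezf2 libraries. The same holds for its place among the 7 plexins. Plxnb1, the receptor of Sema4d, whose printed window holds the most GC boxes of those shown, had 196, 261, 144, 273 and 214 CPM in Fezf2 libraries 1 to 5 and 157, 132 and 127 CPM in GFP libraries 1 to 3. Only Fezf2 library 3 lay within the GFP range (edgeR adjusted p = 0.719, log2 fold change 0.65, SE 0.19). Plxnb3, a receptor of Sema5a, had 10, 67, 25, 5 and 21 counts with Fezf2 and 10, 5 and 1 counts with GFP alone, or 2.95, 17.7, 5.87, 1.44 and 5.42 CPM against 1.76, 1.25 and 0.295 CPM. Fezf2 library 2 held more counts than the other 4 together, and library 4 lay within the GFP range in CPM. Its log2 fold change of 2.50, with an SE of 0.81 and an edgeR adjusted p of 0.729, is a difference between small counts.

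Plxnb2, which binds Sema4c, had 90.7 to 124 CPM with Fezf2 and 79.1 to 104 CPM with GFP alone, and 4 of 5 Fezf2 libraries lay above every GFP library (log2 fold change 0.20, SE 0.16). The 3 type B plexins summed to 240 to 398 CPM with Fezf2 and 230 to 238 CPM with GFP alone, a sum that was not tested.

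**Figure D3:**
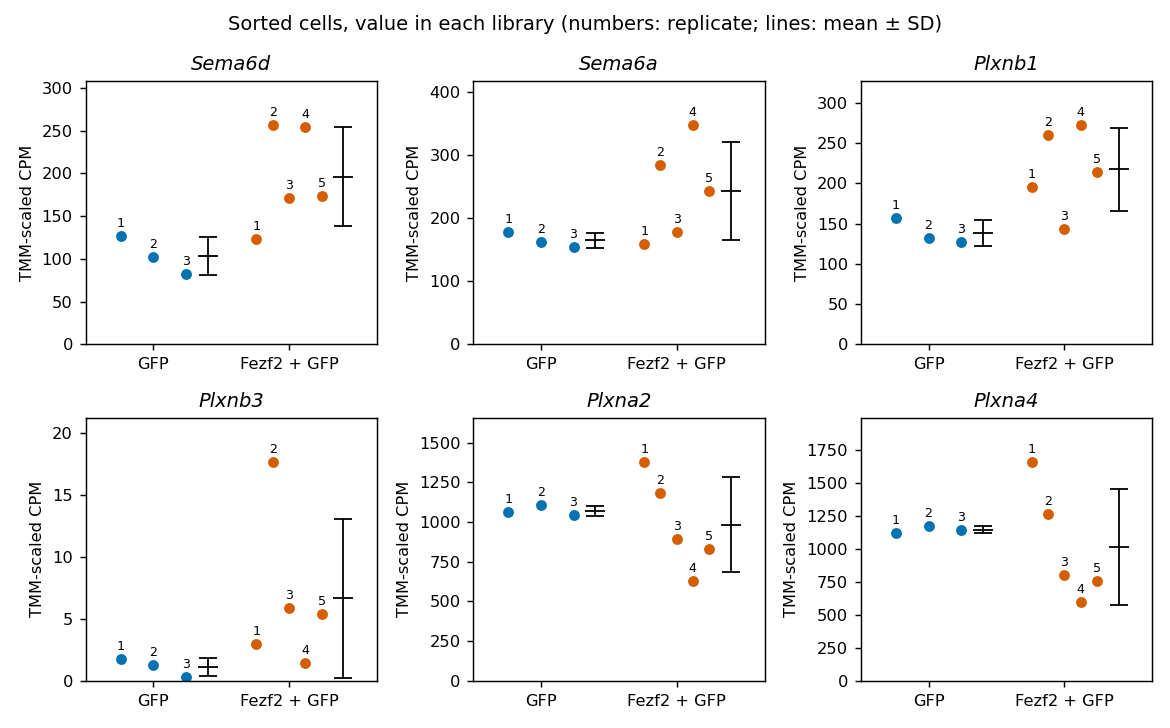
TMM-scaled CPM of Sema6d, Sema6a, Plxnb1, Plxnb3, Plxna2 and Plxna4 in each sorted library (points, numbered by replicate), with the mean and ± 1 SD of each group beside them. Fezf2 libraries 2 and 4 lie highest for Sema6d, Sema6a and Plxnb1, whereas for Plxna2 and Plxna4 Fezf2 library 1 lies highest, library 4 lowest, and the 3 GFP libraries lie close together.

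The abundant type A plexins differed from library to library rather than between the groups. Plxna4 had 1665, 1269, 801, 597 and 759 CPM in Fezf2 libraries 1 to 5 and 1124, 1174 and 1143 CPM in GFP libraries 1 to 3. Plxna2 had 1381, 1183, 891, 628 and 831 CPM against 1064, 1105 and 1042 CPM. In both genes 2 Fezf2 libraries lay above every GFP library and 3 below, and the log2 fold change was -0.17 (SE 0.26) for Plxna4 and -0.12 (SE 0.21) for Plxna2. The standard deviation of Plxna4 was 439 CPM among the Fezf2 libraries and 25.7 CPM among the GFP libraries. Plxna1, another receptor of class 3 ligands, did not share this spread, with 241, 213, 262, 229 and 253 CPM with Fezf2 and 248, 217 and 215 CPM with GFP alone (log2 fold change 0.08, SE 0.13). Plxna3, a receptor of Sema3f with Nrp2, had 150, 142, 137, 96.5 and 94.5 CPM against 105, 107 and 97.9 CPM (log2 fold change 0.26, SE 0.18), with 3 Fezf2 libraries above and 2 below the GFP range. Plxnd1 had 21.2, 16.4, 35.0, 10.1 and 12.4 CPM against 10.9, 23.8 and 10.3 CPM, and Plxnc1, the receptor of Sema7a, had 70.9 to 109 CPM against 55.4 to 87.0 CPM, at fold changes of 0.35 (SE 0.41) for Plxnd1 and 0.16 (SE 0.20) for Plxnc1 on the log2 scale.

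Both neuropilins, the ligand-binding co-receptors of class 3 semaphorins, had higher means with Fezf2. Nrp1, which binds Sema3a, had 75.8, 112, 50.3, 61.8 and 64.0 CPM in Fezf2 libraries 1 to 5 and 45.7, 46.7 and 62.2 CPM in GFP libraries 1 to 3 (edgeR adjusted p = 0.770, log2 fold change 0.50, SE 0.24). Nrp2, which binds Sema3f, had 11.2, 22.4, 8.93, 18.8 and 17.8 CPM against 14.4, 10.3 and 7.08 CPM (edgeR adjusted p = 0.819, log2 fold change 0.56, SE 0.36). In each gene 3 Fezf2 libraries lay above every GFP library and the groups overlapped.

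The Fezf2 libraries were more variable than the GFP libraries. The coefficient of variation was larger among the Fezf2 libraries for 24 of 29 members, with a median of 31.8% against 15.5%. Over all tested genes, 10417 of 13754 tested genes had the larger value with Fezf2, with medians of 29.6% and 17.9%. Among the Fezf2 libraries, library 1 was the highest for 9 members, including Plxna2, Plxna4, Plxna3, Sema3c, Sema4d and Sema4g, and the lowest for 6, including Sema6a, Sema6d and Sema5b. Library 4 was the highest for 5, including Sema6a, Plxnb1 and Plxnb2, and the lowest for 10, including Plxna2, Plxna4, Sema3a, Sema3c and Sema3f. The type A plexins together took 3437, 2808, 2091, 1551 and 1937 CPM in Fezf2 libraries 1 to 5 and 2498 to 2604 CPM in the GFP libraries.

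Summed marker genes of cell types varied across the same libraries. The 9 markers of cortical glutamatergic neurons summed to 3527, 2208, 2406, 1346 and 1842 CPM in Fezf2 libraries 1 to 5 and 2734 to 2892 CPM in the GFP libraries, so they too were highest in library 1 and lowest in library 4. The 12 astrocyte markers summed to 881, 2860, 1414, 4248 and 2971 CPM with Fezf2 and 1093 to 1517 CPM with GFP alone, lowest in library 1 and highest in library 4, as Sema6a was. All 12 had a higher mean with Fezf2, 0 passed the edgeR test, and their median log2 fold change was 0.77. Of the other lists, 9 of 10 tested oligodendrocyte-lineage markers (780 to 1854 CPM against 661 to 893), 9 of 10 radial glia markers (1724 to 5033 against 1899 to 2574), 12 of 14 cell cycle genes (288 to 816 against 346 to 391) and 4 of 4 tested pericyte markers (48.9 to 163 against 36.3 to 55.7) had a higher mean with Fezf2. Interneuron markers were higher in 8 of 10 cases (124 to 328 against 163 to 232) and corticofugal markers in 7 of 9 (217 to 296 against 176 to 229). A lower mean was found in 8 of 9 glutamatergic markers and in 7 of 9 callosal and upper-layer markers (1834 to 3666 against 2869 to 3072). Of the tested markers, 3 of 4 for striatal projection neurons, 2 of 3 for microglia, 3 of 5 for endothelial cells and 2 of 2 for meningeal fibroblasts had a higher mean. Markers with low counts are not in these shares. In the oligodendrocyte, pericyte and fibroblast lists, Mog (1.68 against 5.70 CPM), Enpp6, Col3a1 (1.46 against 2.83 CPM), Dcn and Lum were untested and lower. Vtn, Anpep and Foxc1 were untested and higher. Col1a2, Kcnj8 and Drd1 had GFP means of 1.76, 0.94 and 1.35 CPM. They may have passed the filter through the Fezf2 libraries, so their direction is no support. None of the genes in these lists was at 0 in every sorted library. Their part in the values of Sema6d, Sema6a, Plxnb1, Plxna2, Plxna4 and the rest of the family was not tested.

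**Figure D4:**
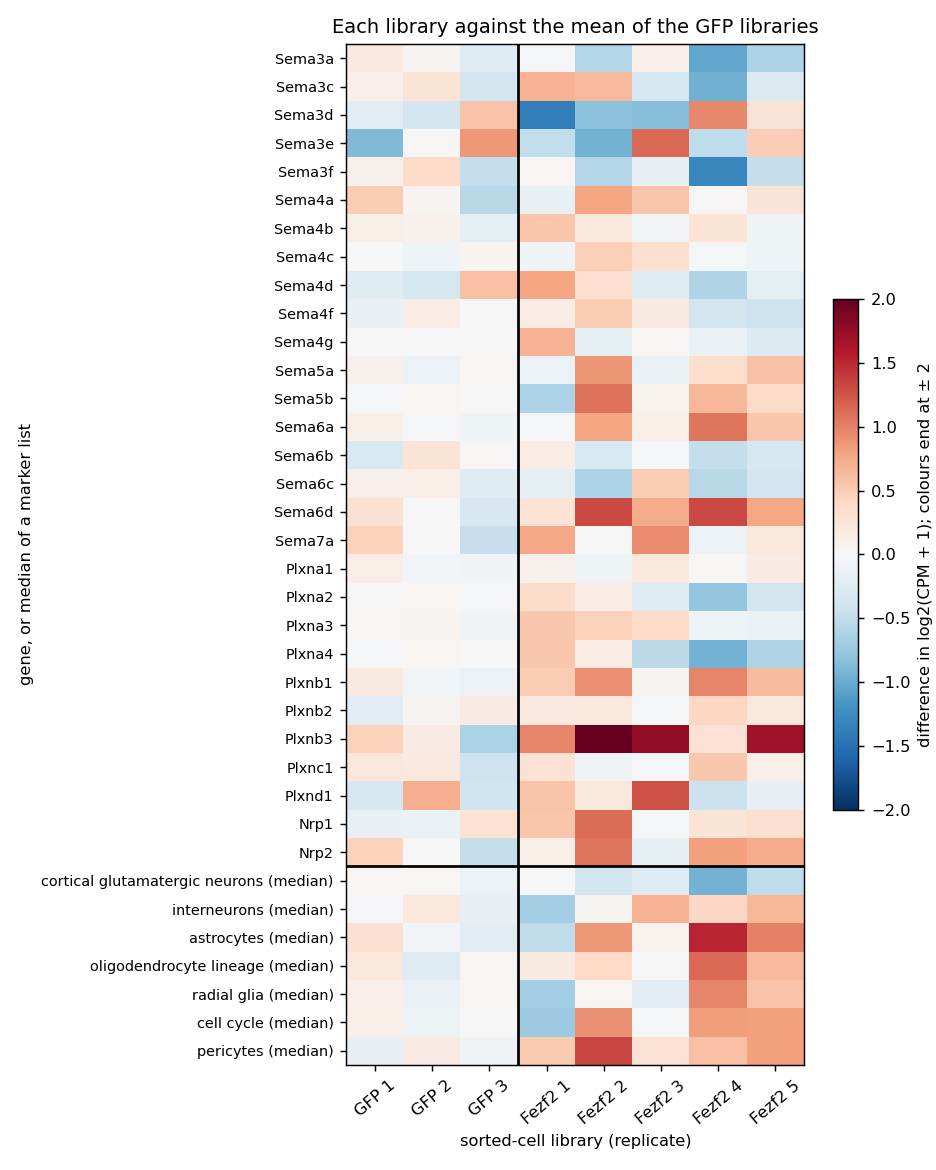
Difference of each sorted library from the mean of the 3 GFP libraries in log2(CPM + 1), as colour, for the 29 tested genes (upper rows) and the median of 7 marker lists (lower rows). Sema6d, Sema6a, Sema5a and Sema5b are red in Fezf2 libraries 2, 4 and 5, Plxna2, Plxna4 and Sema3c are red in library 1 and blue in library 4, and the astrocyte and glutamatergic marker rows differ most in library 4.

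In the neocortex pair, the library labelled Fezf2 knockout was compared with the wild-type library. With 1 library each there is no test, and the 95% intervals are exact binomial intervals that cover counting error only. The family's ratios were small. Of the 26 members with at least 5 CPM in either library, 0 had an absolute log2 ratio of 1 or more, against 2.33% of 11218 genes (1.01% higher, 1.32% lower). There were 16 log2 ratios above 0 and 10 below, against 50.8% of all genes above 0, with a median of 0.22 against 0.01 over all genes. The largest was 0.61 (0.54 to 0.70) in Plxnb2, at 237 CPM under the knockout label and 155 CPM under the wild-type label. Sema6b, Sema3f, Plxnd1 and Sema7a followed at 0.54, 0.51, 0.49 and 0.47.

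At the lower end, Sema4d and Nrp2 each had -0.47, Sema6a -0.44, Sema3a -0.43, Plxnc1 -0.42, Plxna2 -0.34 and Sema6d -0.33. Sema6a had 79.9 CPM against 108 CPM, and Sema6d 99.3 CPM against 125 CPM. Both neuropilins were lower in the library labelled knockout, Nrp1 at 73.4 against 82.6 CPM (-0.17, -0.29 to -0.05) and Nrp2 at 67.9 against 94.0 CPM (-0.47, -0.59 to -0.35). Among class 3 ligands, Sema3a had 55.6 against 74.8 CPM, Sema3c 45 against 48.3 CPM and Sema3f 65.6 against 45.9 CPM, so the main Nrp1 and Nrp2 ligands lay on opposite sides. Among type A plexins, Plxna4 had 738 against 608 CPM (0.28, 0.24 to 0.32), Plxna1 335 against 265 CPM (0.33), Plxna3 318 against 274 CPM (0.21) and Plxna2 439 against 555 CPM. Of the class 4 genes 5 of 6 lay above 0, and the most abundant ligand, Sema4g, had 344 against 331 CPM (0.06). Sema4c stood at 209 against 171 CPM (0.29), and Sema6b at 201 against 138 CPM. Plxnb1 was level at 223 and 224 CPM.

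The interval lay above 0 in 14 members, below 0 in 8 and held 0 in 4, against 30.9% of all genes above 0 and 30.8% below. The width of an interval follows the counts, which for these members were 1132 to 20367 over both libraries. Such intervals say nothing of differences between animals. Ratios also moved with gene length. Over all genes at 5 CPM the median log2 ratio was 0.07 up to 4 kb, -0.03 from 4 to 8 kb and -0.13 above 8 kb. The members' medians were 0.51 for 3 genes, 0.23 for 14 and -0.33 for 9 in the same ranges, and of the 9 long members 3 lay above 0, among them Plxna1 and Plxna4. The part of length in these ratios was not tested.

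**Figure D5:**
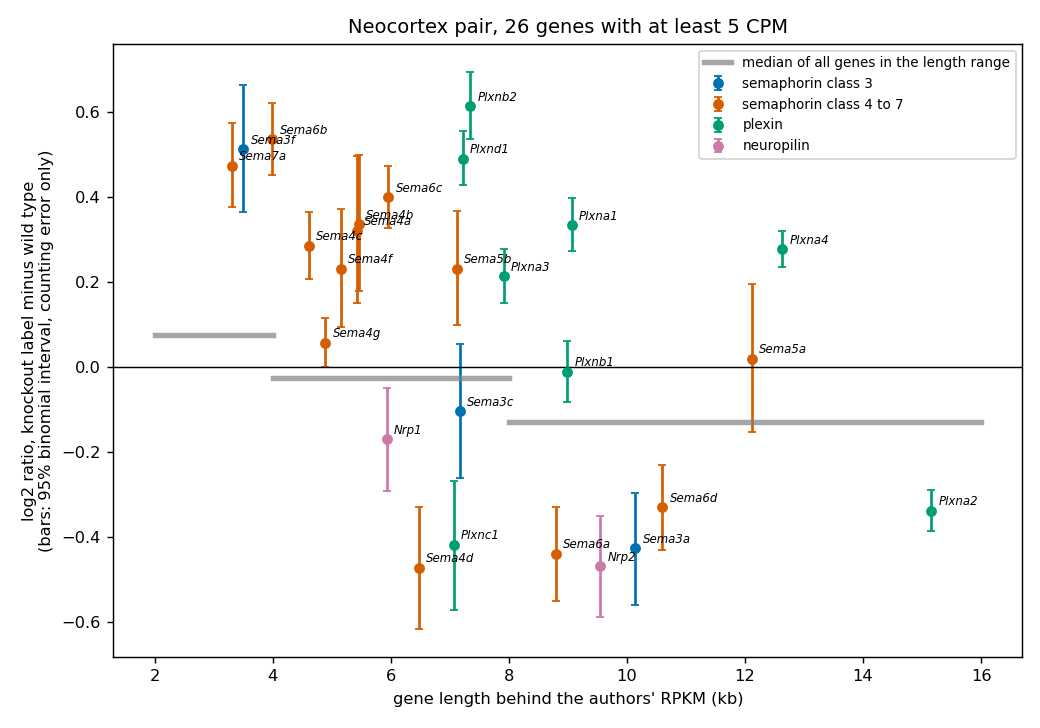
Log2 ratio of the library labelled Fezf2 knockout to the wild-type library (y axis, bars 95% binomial intervals of counting error) against the gene length behind the authors' RPKM in kb (x axis) for the 26 members with at least 5 CPM. Grey lines mark the median of all genes up to 4 kb, from 4 to 8 kb and above 8 kb, and all members lie between -0.47 and 0.61.

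Markers of other cell types were given for the same pair. All 10 corticofugal neuron markers were lower in the library labelled knockout, 8 of them past the limit, with sums of 319 CPM against 763 CPM. At 5 CPM or more, 5 of 5 striatal projection neuron markers were lower, 2 past the limit, with sums over the list of 196 against 327 CPM. Glutamatergic markers were lower in 6 of 9 cases (1853 against 2333 CPM) and interneuron markers in 7 of 10 (829 against 806 CPM). Past the limit were also the glutamatergic markers Bhlhe22 (log2 ratio -1.16) and Emx1 (1.04) and the pericyte marker Kcnj8 (1.44). The interneuron marker Npy was past it too, at 228 against 91.5 CPM (1.31). Ratios lay above 0 in 6 of 9 callosal and upper-layer markers and 7 of 10 oligodendrocyte-lineage markers. They lay above 0 in 5 of 11 astrocyte, 3 of 9 radial glia and 4 of 8 cell cycle genes. Of 7 endothelial markers at 5 CPM or more 6 were higher, with sums over the list of 169 against 133 CPM, and of 5 pericyte markers 5 were higher, with sums of 144 against 103 CPM. Plxnd1 had 353 against 251 CPM there. The part of these cell types in the ratios of Plxnd1 or any other member was not tested. Below 5 CPM, Sema3e had 24 counts against 45 and Sema3d 33 against 51, giving log2 ratios of -1.41 (-2.28 to -0.76) and -1.17 (-1.90 to -0.56), the 2 members past the limit when the minimum was 1 CPM. Sema3b, Sema3g and Plxnb3 were below 5 CPM as well, and their intervals held 0.

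Genes that work with the family were read from 4 lists with 53 genes. These hold partners of ligands and receptors, GTPases and their regulators at the plexin tail, kinases with the collapsin response mediator proteins (CRMPs), and actin and redox effectors. Of the 48 tested in sorted cells, 0 were called by edgeR or DESeq2, against 0.0145% of all tested genes called by edgeR. At an unadjusted edgeR p under 0.05, 1 was higher and 2 were lower. The shares over all tested genes were 4.31% higher, 2.24% lower and 6.55% either way. The median log2 fold change was 0.06, against 0.02 over all tested genes. Rnd3, a small GTPase that binds plexins, had 25.9, 56.4, 53.8, 73.1 and 61.5 CPM with Fezf2 and 20.4, 26.1 and 35.4 CPM with GFP alone, with Fezf2 library 1 again among the GFP libraries (edgeR adjusted p = 0.719, log2 fold change 1.0, SE 0.30). Cntn2, an axonal adhesion molecule, had 788, 478, 426, 285 and 342 CPM against 656, 679 and 875 CPM, and library 1 was the only Fezf2 library to reach the GFP range (edgeR adjusted p = 0.729, log2 fold change -0.67, SE 0.25). With no low-count filter edgeR called 2 of 53 pathway genes, Rnd3 and Cntn2, against 117 of 26328 genes in all. Cfl2, an actin-severing cofilin, had 93.5 to 124 CPM with Fezf2 and 128 to 164 CPM with GFP alone, which did not overlap (edgeR adjusted p = 0.729, log2 fold change -0.37, SE 0.15). Cdk5, a kinase of the Sema3a pathway, was the other gene with groups apart, at 16.1 to 24.3 against 25.1 to 28.5 CPM, against 2.46% of all tested genes apart and lower.

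By list, 11 of 13 partners, 9 of 13 GTPase effectors, 4 of 14 kinases and CRMPs and 5 of 8 actin and redox effectors had a higher mean with Fezf2. In the neocortex pair, 0 of the 47 measured pathway genes reached an absolute log2 ratio of 1, with 24 above 0 and 23 below. They ran from -0.70 in Rock1, a kinase that acts on the actin and myosin cytoskeleton, to 0.59 in Rnd1, a GTPase that opens type A plexins, and Rnd3 stood at -0.48.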

How the data were processed

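Counts per gene were deposited by the authors for 10 RNA libraries as unnormalized whole numbers, read from 75 bp single reads per the labels. RPKM values were deposited as well. Those of the neocortex pair matched the counts per library total and gene length, which gave the lengths used here. Those of the sorted cells were lower by a factor of 0.254 to 0.455 by library. Within a library, 97.3% to 97.4% of the well-counted genes lay within 2% of its factor. By library, 2309 to 3568 genes had a count of 0 but an RPKM above 0. These values thus did not come from the deposited counts alone and served only as an alternative. STAR 2.4.0e, Bowtie 0.12.5, MACS2 2.0.9, HTSeq 0.6.1 and the build mm9 are named in the submitters' processing notes. Neither annotation nor strand setting is given in the sources used here, and overlapping and antisense genes may share reads. The ChIP-seq peak lists were not analysed here, since the gene tables use another build.

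Of 35972 identifiers, 31707 matched the gene name table. Sorted cells were fitted with edgeR 4.0.16 in R 4.3.3 (TMM, filterByExpr, robust quasi-likelihood F test, 5 against 3 libraries, adjustment over 13754 genes), and each SE is the absolute log2 fold change divided by the square root of F. DESeq2 1.42.0, RLE factors, no low-count filter, no mitochondrial genes, a replicate block and left-out libraries were alternatives. Neocortex ratios used TMM-scaled CPM, a prior count of 2 and a minimum of 5 CPM in either library. Full values are given for members with an unadjusted p under 0.05 or groups that do not overlap, and for the 3 of highest length-scaled level in each of 4 classes in either experiment. Up to 3 genes were named per pathway list. Other members named with values were chosen after their values were seen. The members, lists and tests were chosen with earlier results of these data known. The list of red blood cell markers (3 genes found, 2 of them at 0 in every sorted library) is not described further.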

Additional observations from a re-analysis of the deposited data

Results flagged for a closer look

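In 3 of the 29 tested members, 1 of the 5 Fezf2 libraries stood apart from the other 4 by Dixon's criterion. Chance flags about 1 in 20 groups, and the same criterion was met by 6.51% of all 13754 tested genes. Sema4g had 193 CPM in Fezf2 library 1, with the next highest library at 123 CPM. Plxnb3 had 17.7 CPM in Fezf2 library 2, with the next at 5.87 CPM. Sema6c, a membrane semaphorin, had 69.5 CPM in Fezf2 library 3, with the next at 42.5 CPM. Each was the highest value of its group, and the libraries were different ones.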

How the results depend on the processing

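No log2 fold change of Sema6d, Sema6a, Plxnb1 or Plxnb3 changed sign under any alternative, with ranges of 0.73 to 1.13, 0.29 to 0.68, 0.36 to 0.76 and 1.33 to 3.09, and their adjusted p-values ran from 0.000975 to 0.999. These genes were picked by their unadjusted p in the same libraries, which the alternatives reuse, so a kept sign is no support. Without Fezf2 replicate 3, Plxnb3 did not pass the low-count filter and was not tested. With all libraries, DESeq2 gave Plxnb3 no adjusted p. All genes called in sorted cells numbered 2, and 8 by DESeq2 (4 higher), 117 with no low-count filter (79 higher), 6 without Fezf2 libraries 4 and 5, 1 without Fezf2 library 5 and GFP library 1, which have high Xist, and 6 without Fezf2 libraries 1, 2 and 4, an alternative chosen after seeing the data. Leaving out single libraries gave 1 to 2 calls. Of the members, 1 was called with no filter (Sema6d) and 0 otherwise; of the pathway genes, 2 with no filter (Rnd3 and Cntn2) and 1 without Fezf2 libraries 1, 2 and 4 (Cntn2, lower). Members whose groups did not overlap numbered 0, from 0 to 3 with single libraries left out, and 4 without Fezf2 libraries 4 and 5 (Sema4f, Plxnb3 and Plxna3 higher, Sema3d lower). Without Fezf2 library 1 these were Sema6a, Sema6d and Sema5b, without Fezf2 library 3 Plxnb2 and Plxnb1, without Fezf2 library 4 Plxnb3, without GFP library 1 Sema6d, Plxnb3 and Plxnb1 (all higher), and without GFP library 3 Nrp1 (higher) and Sema3f (lower). Over all tested genes the share without overlap was 6.75% to 10.7% with single libraries left out and 14.0% without Fezf2 libraries 4 and 5. At a 1 CPM minimum, 2 members (Sema3d and Sema3e, both lower) and 1 pathway gene (Trem2, higher) passed the neocortex limit.

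The replicate numbers gave no sign of pairs among the sorted libraries: deviations of same-numbered libraries correlated at -0.05, -0.01 and -0.05. No label says whether libraries were paired, and these correlations cannot show that they were not. With the replicate number as a block, 6 genes and 0 members were called, and Sema6d had a log2 fold change of 0.79 (edgeR adjusted p = 0.466). Fezf2 libraries 4 and 5 have no partner, so that fit drops them from the difference. The depth of 3245932 to 5801839 counts leaves Plxnb3, Sema3b, Sema3d, Sema3e and Sema3g at few counts, so their values are the least precise.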
